A study of Mus musculus with 6 samples.

Results

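The genes examined were 10 genes of connective tissue and of the peritoneal lining, Col1a1, Col1a2, Col3a1, Col4a1, Col18a1, Sparc, Dcn, Msln, Upk3b and Krt19, read in RNA from macrophage preparations. They were chosen by symbol, each matched 1 row among the 25509 gene rows, and all 10 were among the 12827 genes that passed the filter on low counts. The 6 poly-A RNA libraries came from C57BL/6 mice, 3 labelled WT and 3 labelled JWT (Tg-ACE), a line that overexpresses angiotensin-converting enzyme. All 6 came from peritoneal cells collected 4 days after a thioglycollate injection, enriched on a Percoll density gradient and kept for 2 h in culture so that adherent cells could be lysed. The labels give neither the age of the mice nor the promoter or cells that drive the transgene, and do not say whether a library is 1 mouse or a pool. The p-values below therefore reflect the spread among these libraries, which could be technical. The descriptions add an experiment code: Exp-156 for the first WT and the first Tg-ACE library (2 in all), Exp-156b for the other 4.

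Collagens are secreted by fibroblasts and other mesenchymal cells and are not part of the usual description of a macrophage. Fibrillar collagens (Col1a1, Col1a2 and Col3a1) form the fibres of connective tissue, Col4a1 and Col18a1 belong to basement membranes, and the secreted proteins Sparc and decorin (Dcn) bind collagen. The peritoneal cavity is lined by mesothelial cells, flat epithelium-like cells of mesodermal origin that carry mesothelin (Msln), uroplakin 3b (Upk3b) and keratins such as Krt19.

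Library totals lay between 24294258 and 28120394 expected counts, and a reading of 3 counts was worth 0.105 to 0.123 CPM (the count relative to the library total, scaled by edgeR). Ace, the overexpressed gene, stood at 16.7, 7.60 and 11.6 CPM in WT replicates 1 to 3 and at 101, 25.6 and 31.8 CPM in Tg-ACE replicates 1 to 3. The macrophage core markers (13 rows for 12 genes, since Itgam has 2 identifiers) summed to between 44770 and 53120 CPM. The libraries of the 2 codes stood apart in many genes: 5502 of 12827 tested genes (42.9%) differed by code in the quasi-likelihood test of edgeR (adjusted p under 0.05, Benjamini-Hochberg). The code also went with genes that mark the sex of the mice: Xist stood at or below 0.527 CPM in Exp-156 and at or above 327 CPM in Exp-156b, and the Y-linked Ddx3y at or above 48.0 CPM and at or below 0.107 CPM. Sex and whatever else the code stands for cannot be told apart, and each result by code below is a difference between these 2 sets of libraries.

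RefSeq's promoter table held 6 of the 10 genes. For 2 of them the 150 bases before the start site are shown, because Upk3b passed the test by experiment code and Col3a1 did not. Each of these windows also ends directly before the annotated start of its own gene. Overlap of the windows with exons of other genes was not checked. Both are on the forward strand of build GRCm38.p6, Upk3b at chr5:136038346-136038495 and Col3a1 at chr1:45311388-45311537. Capitals mark a motif match.
Upk3b: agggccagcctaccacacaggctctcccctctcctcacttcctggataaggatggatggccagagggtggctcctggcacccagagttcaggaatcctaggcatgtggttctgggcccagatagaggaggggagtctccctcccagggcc
Col3a1: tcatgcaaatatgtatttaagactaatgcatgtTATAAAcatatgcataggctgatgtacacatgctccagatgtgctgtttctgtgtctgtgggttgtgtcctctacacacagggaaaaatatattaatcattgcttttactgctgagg
Searched on both strands, the motif TATAAA was found before Col3a1 and is present in 7.57% of 32851 promoter windows of that length. The motif CCAAT is present in 24.5% of the windows and in neither of these 2. Likewise GGGCGG, present in 28.6%, was found in neither. The last motif searched was TGACTCA, present in 2.84% and in neither. A match describes the letters only, and the lack of one says nothing of a factor's binding.

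Messenger RNA of all 10 genes was counted in every library, from 17 counts for Msln in WT replicate 2 to 5970 counts for Col1a2 in Tg-ACE replicate 3. Together the 10 genes made up 276.3 CPM in WT replicate 1 and 305.9 CPM in Tg-ACE replicate 1, against 587, 677.7, 377.7 and 779.2 CPM in WT replicates 2 and 3 and Tg-ACE replicates 2 and 3, so between 0.0276% and 0.0779% of the counts. Of the 12827 tested genes, 91.6% had a lower mean level in CPM than Col1a2, 86.5% a lower one than Sparc and 85.2% a lower one than Col1a1, while 10.4% had a lower one than Msln. Per kilobase of exon, the mean over the 6 libraries was highest for Sparc, at 27.3 CPM per kb, followed by Col1a1 (14.5), Col1a2 (12.3), Dcn (6.77), Col3a1 (6.39), Col4a1 (3.33), Krt19 (2.32), Upk3b (2.17), Col18a1 (1.26) and Msln (0.418). The length used is the union of all annotated exons of a gene, such as 6563 bases for Col1a1 and 12426 for Col1a2. The order and the size of ratios between genes therefore depend in part on the annotation, while a comparison of 1 ratio between libraries does not. Sparc ranged from 11.6 to 43.9 CPM per kb over the libraries, Col1a1 from 5.55 to 24.3 and Col1a2 from 6.71 to 19.8, so these neighbours in the order overlapped in range. Within every single library, though, Sparc per kilobase was above both Col1a1 and Col1a2, while the order of Col1a1 and Col1a2 differed by code. Msln (0.197 to 0.654 CPM per kb) lay below the range of Col18a1 (0.840 to 2.03). In a bulk library fewer cells of a type and less RNA per cell cannot be told apart.

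By experiment code, 6 of the 10 genes were higher in Exp-156b (Col1a1, Col1a2, Col4a1, Sparc, Dcn and Upk3b), Krt19 was lower, and Col3a1, Col18a1 and Msln did not pass the test. Of all tested genes 20.0% were called higher in Exp-156b and 22.9% lower. The libraries of the codes did not overlap for the same 7 genes, 6 higher and 1 lower, against 28.9% higher, 30.9% lower and 59.8% in either direction over all tested genes. The median log2 difference was 1.05 over the 10 genes and -0.005 over all tested genes. By genotype none of the 10 passed, in a fit where 0 of 12827 genes did (0%).

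**Figure D1:**
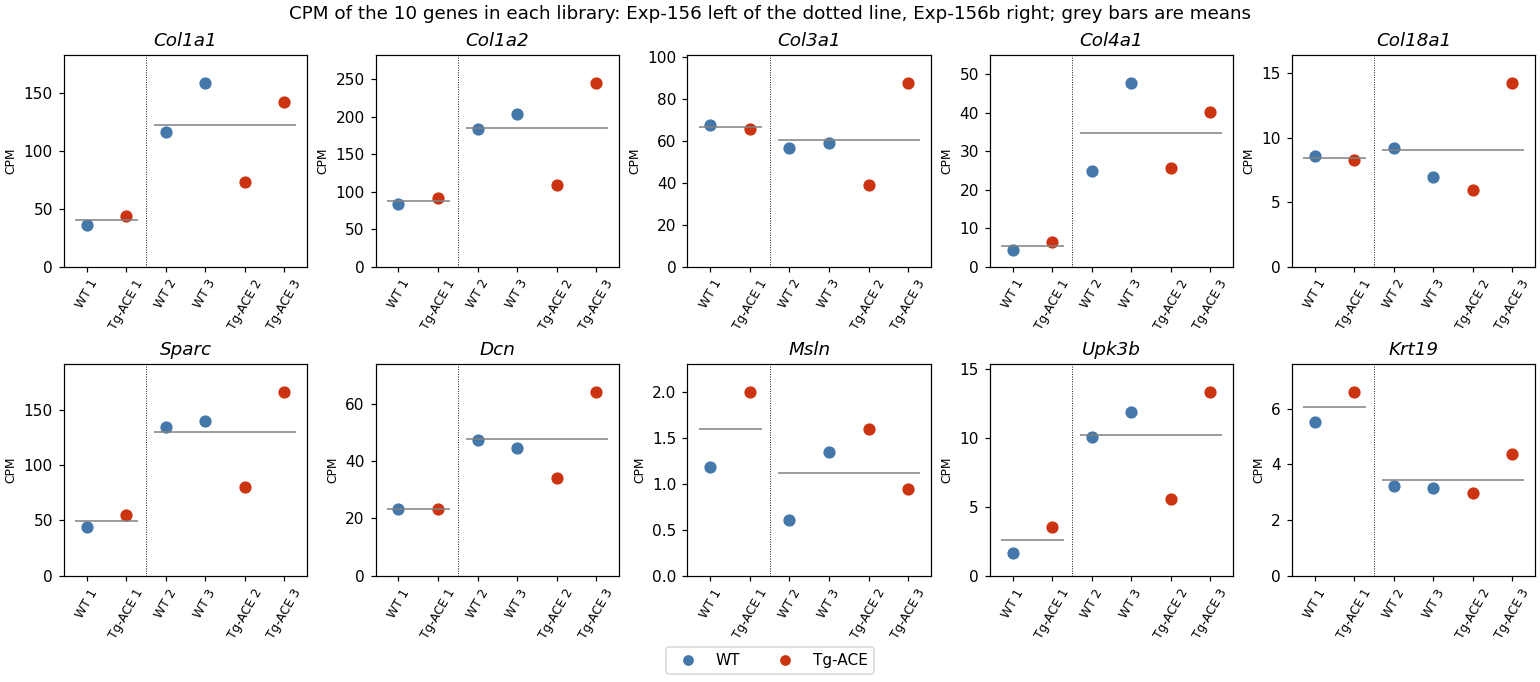
CPM (TMM-scaled, linear axes from 0) of each of the 10 genes in the 6 libraries, with WT in blue and Tg-ACE in red, Exp-156 left and Exp-156b right of the dotted line, and grey bars at the mean of each code. For Col1a1, Col1a2, Col4a1, Sparc, Dcn and Upk3b every Exp-156b library lies above both Exp-156 libraries, and for Krt19 every one lies below.

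Type I collagen is built from the products of Col1a1 and Col1a2. Col1a1 (chromosome 11, 94936224 to 94953042, forward strand; this and the following gene positions are on GRCm38, GENCODE M21) stood at 36.4 and 43.6 CPM in the Exp-156 WT and Tg-ACE libraries and at 117, 159, 73.5 and 142 CPM in WT replicates 2 and 3 and Tg-ACE replicates 2 and 3. The codes did not overlap, and the lowest Exp-156b library was Tg-ACE replicate 2. The mean was 39.99 ± 5.06 CPM in Exp-156 (SD, n = 2) and 122.9 ± 37.4 CPM in Exp-156b (SD, n = 4), a log2 difference of 1.60 (SE 0.29, adjusted p = 0.00362 in edgeR with genotype in the fit). Col1a2 (chromosome 6, 4504814 to 4541544, forward strand) measured 83.4 and 91.9 CPM in Exp-156 (WT, Tg-ACE) against 184, 203, 109 and 245 CPM in Exp-156b (WT replicates 2 and 3, Tg-ACE replicates 2 and 3). Its log2 difference was 1.08 (SE 0.28, edgeR adjusted p = 0.0181), and again no library of one code reached the range of the other.

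Col3a1, the chain of type III collagen that accompanies type I in soft connective tissue, did not pass the test by code. It (chromosome 1, 45311538 to 45349706, forward strand) measured 67.8 and 65.6 CPM in Exp-156 (WT, Tg-ACE) against 56.9, 58.9, 39.0 and 88.0 CPM in Exp-156b (WT replicates 2 and 3, Tg-ACE replicates 2 and 3). The 2 Exp-156 libraries lay inside the range of the 4 others, and the log2 difference was -0.14 (95% interval -0.75 to 0.47, edgeR adjusted p = 0.697). Without Tg-ACE replicate 3, the highest library, Col3a1 fell by 0.43 on the log2 scale in Exp-156b and passed (edgeR adjusted p = 0.0297). Without Tg-ACE replicate 2 the log2 difference was 0.06 (edgeR adjusted p = 0.775). Ratios between the fibrillar chains restate their levels and are no further test. Col3a1 per kilobase was 1.25 and 1.01 times Col1a1 in the WT and Tg-ACE libraries of Exp-156. In the 4 libraries of Exp-156b Col3a1 was between 0.247 and 0.414 times Col1a1. The ratio of Col1a1 to Col1a2 per kilobase was 0.827 and 0.897 in Exp-156 and between 1.10 and 1.49 in Exp-156b.

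Of the basement membrane genes Col4a1 had the largest difference by code among the 10, and Col18a1 had none that passed. Col4a1, a chain of the network-forming type IV collagen (chromosome 8, 11198423 to 11312826, reverse strand), measured 4.34 and 6.40 CPM in Exp-156 (WT, Tg-ACE) against 24.8, 47.8, 25.6 and 40.2 CPM in Exp-156b (WT replicates 2 and 3, Tg-ACE replicates 2 and 3). The mean was 5.37 ± 1.46 CPM (SD, n = 2) against 34.6 ± 11.3 CPM (SD, n = 4), which is 6.44 times as much, with a log2 difference of 2.68 (SE 0.35, edgeR adjusted p = 8.92e-04). Col18a1, whose protein carries the endostatin fragment (chromosome 10, 77052178 to 77166548, reverse strand), measured 8.55 and 8.30 CPM in Exp-156 against 9.16, 6.96, 5.90 and 14.3 CPM in Exp-156b, in the same order of libraries. These values overlapped, and the log2 difference was 0.10 (95% interval -0.65 to 0.84, edgeR adjusted p = 0.824). The ratio of Col4a1 to Col18a1 per kilobase was 0.477 and 0.725 in Exp-156 and between 2.55 and 6.47 in Exp-156b.

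Both matrix-associated genes were higher in Exp-156b. Sparc, a calcium-binding glycoprotein that binds collagen (chromosome 11, 55394500 to 55423183, reverse strand), measured 44.0 and 54.5 CPM in Exp-156 (WT, Tg-ACE) against 134, 140, 80.5 and 166 CPM in Exp-156b (WT replicates 2 and 3, Tg-ACE replicates 2 and 3). Its log2 difference was 1.40 (SE 0.27, edgeR adjusted p = 0.00494). Dcn, the small proteoglycan decorin (chromosome 10, 97479609 to 97518143, forward strand), stood at 23.4 CPM in both Exp-156 libraries and at 47.4, 44.6, 34.0 and 64.2 CPM in the same order of Exp-156b libraries, a log2 difference of 1.02 (SE 0.23, edgeR adjusted p = 0.00878). For both genes the codes did not overlap, and Tg-ACE replicate 2 was the lowest and Tg-ACE replicate 3 the highest of the Exp-156b libraries. The ratio to Col1a2 per kilobase lay between 0.467 and 0.663 for Dcn over all 6 libraries, with the codes overlapping. For Sparc it was 1.73 and 1.95 in Exp-156 (WT, Tg-ACE) and between 2.22 and 2.42 in Exp-156b.

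The 3 mesothelial genes did not move together. Upk3b, which encodes a uroplakin of the mesothelial surface (chromosome 5, 136038496 to 136046487, forward strand), stood at 1.64 and 3.55 CPM in Exp-156 (WT, Tg-ACE; 40 and 101 counts) and at 10.01, 11.9, 5.58 and 13.3 CPM in Exp-156b (WT replicates 2 and 3, Tg-ACE replicates 2 and 3). It was higher in each Exp-156b library, with a log2 difference of 1.98 (SE 0.43, edgeR adjusted p = 0.00806). Krt19, a keratin of simple epithelia and mesothelium (chromosome 11, 100140810 to 100148665, reverse strand), measured 5.52 and 6.61 CPM in Exp-156 against 3.23, 3.14, 2.99 and 4.36 CPM in Exp-156b, in the same order. Every Exp-156b library was below both Exp-156 libraries, and Krt19 fell by 0.82 on the log2 scale (SE 0.19, edgeR adjusted p = 0.0102). Upk3b per kilobase was 0.156 and 0.282 times Krt19 in Exp-156 and between 0.981 and 1.99 times in Exp-156b. Since the codes did not overlap for either gene and the directions were opposite, this ratio had to separate the codes.

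Msln, the surface protein mesothelin (chromosome 17, 25748613 to 25754378, reverse strand), was the least abundant of the 10, with 29 and 57 counts in Exp-156 (WT, Tg-ACE) and 17, 34, 40 and 23 in Exp-156b (WT replicates 2 and 3, Tg-ACE replicates 2 and 3). These amount to 1.19, 2.004, 0.604, 1.35, 1.59 and 0.946 CPM in that order of libraries. For the lowest library the exact Poisson 95% interval, which covers counting error only, was 0.352 to 0.966 CPM, and for the highest 1.52 to 2.60 CPM. The codes overlapped, and the log2 difference of -0.49 (95% interval -1.38 to 0.40, edgeR adjusted p = 0.333) did not pass.

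**Figure D2:**
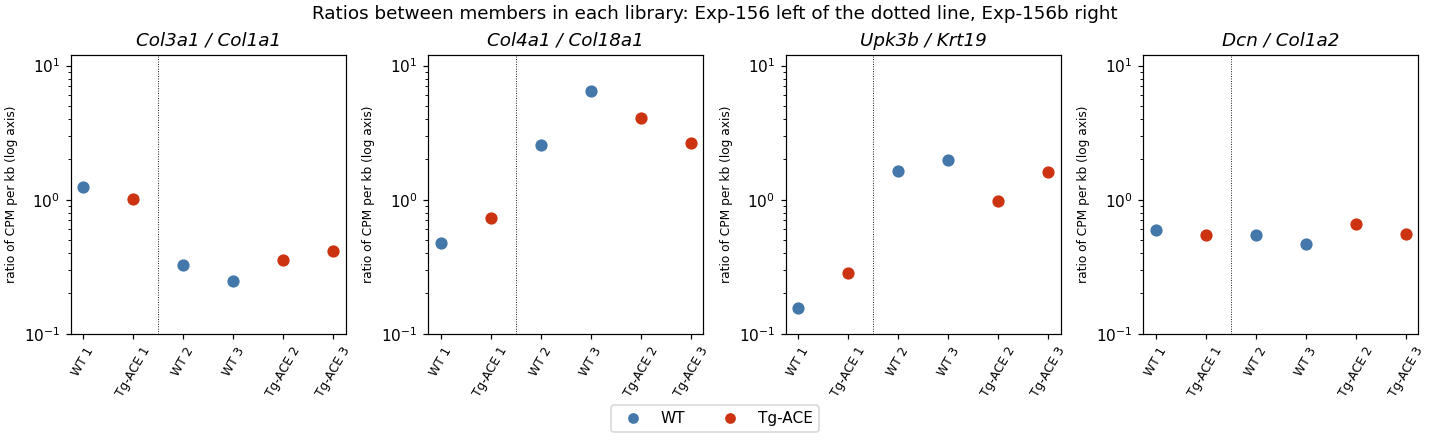
Ratios of CPM per kilobase between 4 pairs of genes in each library (log axes), with WT in blue and Tg-ACE in red, Exp-156 left and Exp-156b right of the dotted line. Col3a1 / Col1a1, Col4a1 / Col18a1 and Upk3b / Krt19 separate the codes, while Dcn / Col1a2 stays between 0.467 and 0.663. The pairs were formed from genes whose levels by code were known, so the ratios restate those levels and are no further test.

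The 7 calls by code rested on 2 Exp-156 libraries. Leaving out either of them leaves a single Exp-156 library that is taken to vary like the others, so only log2 differences are given. Without WT replicate 1 they were 1.30 for Col1a1, 0.94 for Col1a2, 2.35 for Col4a1, 1.17 for Sparc, 1.06 for Dcn, 1.40 for Upk3b and -0.85 for Krt19. Without Tg-ACE replicate 1 they were 1.92, 1.21, 3.06, 1.64, 0.97, 2.73 and -0.80 for the same genes. The directions were the same in both cases. In each case some of the 7 calls ended, and over all tested genes the number of calls by code also fell.

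Within Exp-156b, Tg-ACE replicate 2 had the lowest level of 8 of the 10 genes, all but Col4a1 and Msln, and it was the lowest of those 4 libraries for 22.7% of all tested genes. Its level over the mean of the other 3 libraries was 0.475 for Upk3b, 0.517 for Col1a2, 0.527 for Col1a1, 0.547 for Sparc, 0.575 for Col3a1, 0.582 for Col18a1, 0.653 for Dcn and 0.681 for Col4a1. That ratio was 0.836 for Krt19 and 1.65 for Msln, with a median of 0.579 over the 10 genes and 0.997 over all tested genes. Tg-ACE replicate 3 was the highest of the 4 for 7 of the 10 genes, and for 29.0% of all tested genes. Both libraries are Tg-ACE with the same code. For Col1a1 their levels of 73.5 and 142 CPM enclosed WT replicate 2 (117 CPM), and for Col1a2 their levels of 109 and 245 CPM enclosed both WT libraries of that code.

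No difference between the genotypes was detected for any of the 10 genes, and WT and Tg-ACE overlapped for each of them (4.91% of all tested genes did not overlap). Col1a1 stood at 104.2 ± 62.5 CPM in WT and 86.4 ± 50.6 CPM in Tg-ACE (SD, n = 3 each), a log2 fold change of -0.27 whose 95% interval ran from -1.79 to 1.25. Col1a2 stood at 156.8 ± 64.4 against 148.8 ± 84.1 CPM in WT and Tg-ACE, Sparc at 106.2 ± 54.0 against 100.5 ± 58.5 CPM and Col4a1 at 25.6 ± 21.8 against 24.05 ± 16.9 CPM (SD, n = 3 each). Col3a1 stood at 61.2 ± 5.83 CPM in WT and 64.2 ± 24.5 CPM in Tg-ACE (SD, n = 3 each). Of the 10 log2 fold changes, Tg-ACE minus WT, 5 were above 0 and 5 below, from -0.27 for Col1a1 to 0.54 for Msln, and the median was -0.00077 against -0.0064 over all tested genes. The lowest unadjusted p among the 10 was 0.263, and over all tested genes 126 had an unadjusted p under 0.05 in edgeR, where DESeq2 called 9 and limma-voom 1, none of them among the 10.

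With the experiment code in the fit the spread was narrower and 2 of 12827 genes passed by genotype (0.0156%). Both were lower in Tg-ACE, so neither was Ace, and neither was among the 10. The standard error of Col4a1 went from 0.93 to 0.29 and that of Col1a1 from 0.63 to 0.25. The log2 fold changes of the 10 genes then lay between -0.16 (Col1a1) and 0.52 (Msln), with edgeR adjusted p from 0.830 upward. With the replicate number as a block the same count of 2 genes (0.0156%) passed, and the adjusted p of the 10 genes started at 0.896. The signs rested on single libraries: in the fit on genotype alone all 10 were above 0 without WT replicate 3, and 8 were below 0 without Tg-ACE replicate 3. With the code in the fit and without Tg-ACE replicate 2, an alternative chosen after seeing the data, 10 of 10 were above 0 and none passed (lowest edgeR adjusted p 0.822). That library was the lowest of Exp-156b for 8 of the 10 genes, so leaving it out raises the Tg-ACE side for most of them. The 10 signs in each such fit come from the same libraries and are not independent, so these counts of signs are no test of genotype. In Exp-156 the Tg-ACE library minus the WT library gave log2 differences of 1.08 for Upk3b, 0.72 for Msln, 0.55 for Col4a1, 0.31 for Sparc and 0.26 for Col1a1. In Exp-156b the means differed by -0.34, 0.41, -0.10, -0.25 and -0.42 for the same genes. For the remaining genes the values in Exp-156 and Exp-156b were 0.26 and 0.18 (Krt19), 0.14 and -0.24 (Col1a2) and 0.00086 and 0.022 (Dcn). They were -0.048 and 0.018 for Col3a1 and -0.043 and 0.20 for Col18a1. Exp-156 has 1 library of each genotype, so the test of the difference between these 2 sets of values takes its spread from Exp-156b alone and says little where it makes no call. It called none of the 10 (lowest unadjusted p 0.135, for Upk3b) and 0 of 12827 genes (0%) in edgeR, with 981 at an unadjusted p under 0.05, where limma-voom called 0 and DESeq2 called 13.

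**Figure D3:**
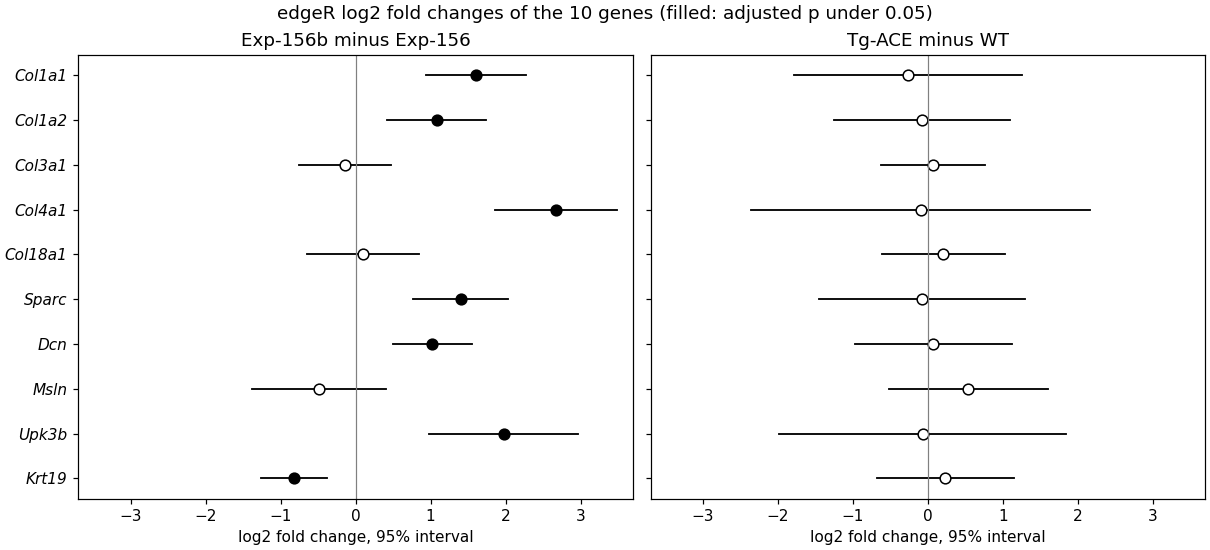
Log2 differences of the 10 genes from edgeR with 95% intervals, left by experiment code (genotype in the fit) and right by genotype alone, on the same axis. Filled points passed at an adjusted p of 0.05: 7 by code and none by genotype, where the intervals all span 0.

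Other collagen chains were counted as well. Of 36 further collagen genes in the table, 3 (Col19a1, Col9a1 and Col25a1) had no count in any library, and 21 passed the filter. By code 6 of the 21 rose and 4 fell, with a median log2 difference of 0.51. Over all tested genes 20.0% were called higher in Exp-156b and 22.9% lower. Every list count below is to be read beside these shares. Col4a2, the partner chain of Col4a1, measured 3.56 and 5.55 CPM in Exp-156 (WT, Tg-ACE) against 18.1, 29.6, 15.7 and 26.1 CPM in Exp-156b (WT replicates 2 and 3, Tg-ACE replicates 2 and 3), a log2 difference of 2.29 (SE 0.32, edgeR adjusted p = 0.00129). The 2 genes' annotated exons overlap by 22 bases on opposite strands, and the strand setting of the counting is unknown here. Among type V chains Col5a2 rose (1.49), Col5a3 fell by 2.33 on the log2 scale and Col5a1 (0.74, edgeR adjusted p = 0.0639) did not pass. Among type VI chains Col6a1 rose (0.78), and Col6a2 (0.54, edgeR adjusted p = 0.0805) and Col6a3 (0.36, edgeR adjusted p = 0.385) did not pass.

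Genes for enzymes that fold, cleave and crosslink collagen were read next. Of 14 tested folding and modifying genes 6 were higher in Exp-156b and 3 lower (median log2 difference 0.32). The collagen-specific chaperone gene Serpinh1 rose, from 20.7 and 26.0 CPM in Exp-156 (WT, Tg-ACE) to 66.1, 76.4, 46.8 and 81.5 CPM in Exp-156b (WT replicates 2 and 3, Tg-ACE replicates 2 and 3), a log2 difference of 1.53 (SE 0.23, edgeR adjusted p = 0.00164). P4hb, a protein disulfide isomerase of many cell types, had the highest level in the list, with a log2 difference of -0.054 that did not pass. The prolyl hydroxylase gene P4ha1 fell by 1.13 on the log2 scale. Of 10 tested cleavage and crosslinking genes 7 rose and 0 fell (median 1.01), among them the lysyl oxidase gene Lox (2.83), the crosslinking gene Loxl2 (1.26) and the procollagen proteinase gene Bmp1 (1.01). By genotype 0 genes of either list passed.

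Of 11 tested laminin, nidogen and heparan sulfate proteoglycan genes 5 rose and 1 fell by code (median 0.81), including Lamb1 (1.31), Hspg2 (1.06) and Nid1 (0.81). Of 15 tested proteoglycan and matrix glycoprotein genes 9 rose and 1 fell (median 1.54), with Bgn (biglycan, 2.13), Fbln2 (1.96) and the matrix glycoprotein gene Tnc (4.30) among those that rose. The gene that fell was Fn1, fibronectin, which elicited macrophages also make: it stood at 3398 and 4269 CPM in Exp-156 against 521 to 1087 CPM in Exp-156b. Of 10 tested collagen receptor and uptake genes 2 rose, 4 fell and 4 did not pass (median -0.16), against 20.0% called higher and 22.9% lower over all tested genes. The macrophage mannose receptor gene Mrc1 fell by 1.47 on the log2 scale, while the fibroblast-type receptor genes Ddr2 (1.91) and Mrc2 (1.31) rose.

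Defining markers of several stromal cell types were read at low levels. Among fibroblast markers, Pdgfra, the receptor that marks fibroblasts in most tissues, measured 10.97 and 11.6 CPM in Exp-156 (WT, Tg-ACE) against 54.8, 57.4, 35.1 and 72.6 CPM in Exp-156b (WT replicates 2 and 3, Tg-ACE replicates 2 and 3), a log2 difference of 2.28 (SE 0.28, edgeR adjusted p = 6.69e-04). Of 10 tested fibroblast markers 6 rose and 2 fell by code (median 0.97), and the summed level of all 15 was 405.9 to 441.7 CPM in Exp-156 and 464.8 to 573 CPM in Exp-156b. Gsn and Pdpn, which macrophages can also express, made up most of that sum. Of the 15, 4 (Col14a1, Fbln1, Lum and Mfap5) are also in the collagen or matrix lists above. The fibroblast genes Dpt, Mfap5, Fap and Tcf21 stayed below 0.5 CPM in every library. The 2 tested fibroblast markers that fell were Gsn (by 0.41 on the log2 scale) and Thy1 (by 1.64). Pi16, another fibroblast marker, measured 32.0 and 10.9 CPM in Exp-156 and at most 0.142 CPM in Exp-156b. Pi16 did not pass the filter on low counts, which asks for 3 libraries, so it was not tested.

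Mesothelial markers outside the 10 genes differed in direction. Of 16 tested, 6 rose and 3 fell by code (median 0.58), against 20.0% called higher and 22.9% lower over all tested genes. Wt1, the transcription factor of mesothelium, measured 6.38 and 7.45 CPM in Exp-156 against 16.8, 15.5, 9.84 and 15.4 CPM in Exp-156b in the same order of libraries (log2 difference 1.04, edgeR adjusted p = 0.00658). Lrrn4 (2.48), Bnc1 (1.90), Gpm6a (1.64) and Upk1b (1.37), all mesothelial genes, rose with it and with Upk3b. The keratin gene Krt7 fell by 0.85 on the log2 scale, in the same direction as Krt19, while Krt8 (-0.28) and Krt18 (-1.002) did not pass. Muc16 stayed at or below 0.119 CPM and Krt5 had no count. The summed level of all 20 markers was 219.4 to 243.5 CPM in Exp-156 and 171 to 213.4 CPM in Exp-156b, most of it from Ezr, which is widely expressed.

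Of 6 tested mural and smooth muscle markers, 4 rose by code and 0 fell (median 1.61), and the summed level of all 10 listed was 14.5 to 16.6 CPM in Exp-156 and 37.0 to 79.3 CPM in Exp-156b. Acta2, smooth muscle actin, measured 3.40 and 4.08 CPM in Exp-156 (WT, Tg-ACE) against 16.1, 29.3, 12.2 and 25.9 CPM in Exp-156b (WT replicates 2 and 3, Tg-ACE replicates 2 and 3). The mural genes Pdgfrb (1.02, edgeR adjusted p = 0.120) and Myh11 (0.35, edgeR adjusted p = 0.534) did not pass. Rgs5 stayed at or below 0.123 CPM in every library, and Cspg4, Cnn1 and Notch3 at or below 0.617 CPM, and these were not tested. Endothelial markers gave 1 higher (Kdr, 0.52) and 2 lower (Vwf and Pecam1) of 6 tested (median -0.17). The shares over all tested genes were 20.0% higher and 22.9% lower. The summed level of all 12 listed was 197.6 to 260.7 CPM in Exp-156 and 149.8 to 184.4 CPM in Exp-156b. Most of it was Vwf (81.8 to 195.9 CPM) and Eng (41.3 to 55.7 CPM). Cldn5 and Emcn were at 0 everywhere and Tek at or below 0.0411 CPM. Adipocyte markers other than Fabp4, which macrophages also express, stayed at or below 0.123 CPM.

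Markers of other leukocytes were lower in Exp-156b in several lists. The part of these and of the stromal markers in the results by code was not tested. Of 6 tested eosinophil and mast cell markers 6 fell in Exp-156b (median log2 difference -1.78), and the sum of all 10 markers was 149 to 317.2 CPM in Exp-156 against 22.6 to 43.2 CPM in Exp-156b. For neutrophil markers 3 of 6 fell (median -1.17), with sums of 165.7 to 498 CPM against 19.2 to 21.4 CPM, and Ly6g and Camp were at or near 0. Most of the Exp-156 sums was Retnlg, at 438.4 and 128.5 CPM (WT, Tg-ACE), and S100a8 did not pass (-0.15). For T and NK cell markers 7 of 8 fell (median -1.89), and for B cell markers 1 of 8 (median -0.29). Of the 13 rows of macrophage core markers 2 rose, 7 fell, both rows of Itgam among them, and 4 did not pass (median -0.42), and of 12 large peritoneal macrophage markers 2 rose and 8 fell (median -2.25), with Gata6 rising (1.42).

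**Figure D4:**
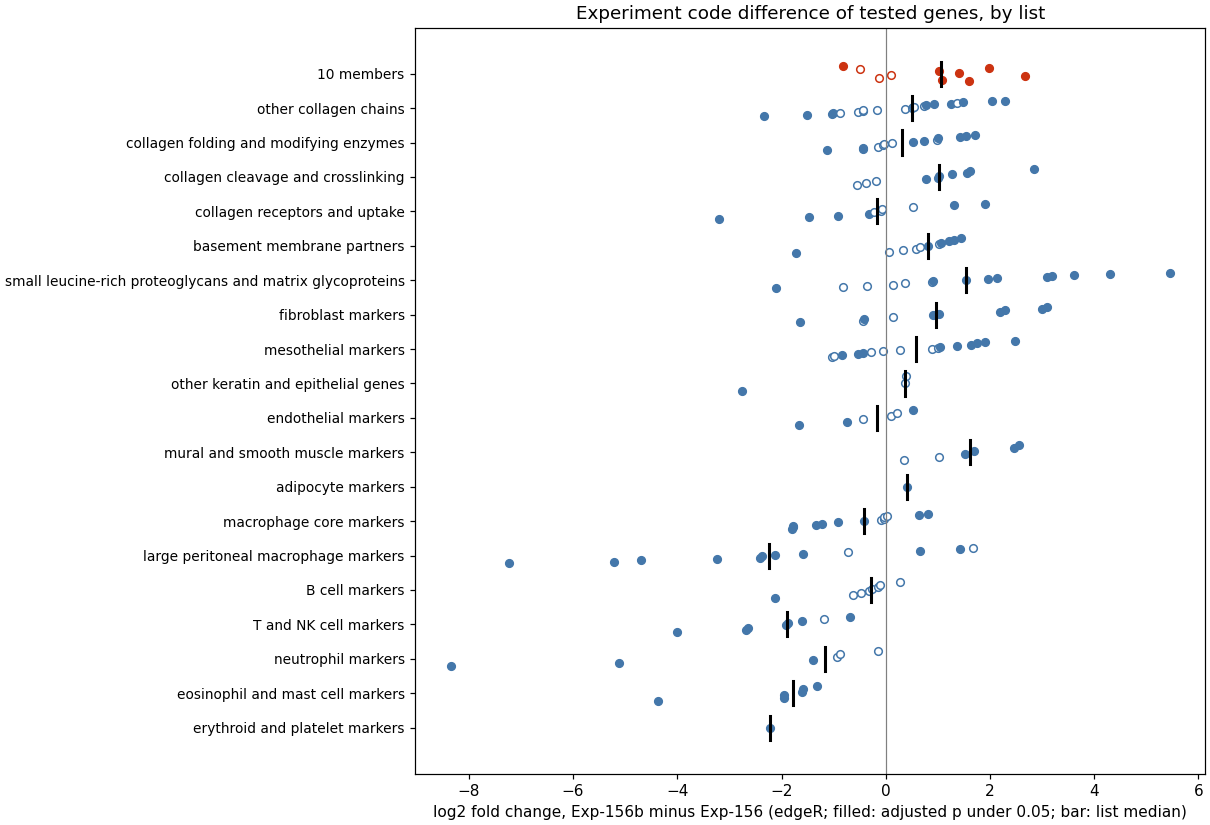
Log2 difference by experiment code (Exp-156b minus Exp-156, edgeR) of each tested gene in the lists, 1 point a gene, filled where the adjusted p was under 0.05, with a bar at each list's median. The 10 genes are red, and the lists of matrix, mural and fibroblast genes have medians above 0 while eosinophil, neutrophil and T cell lists lie below 0.

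Several of these lists were also low in Tg-ACE replicate 2 within Exp-156b. The level there over the mean of the other 3 libraries had a median of 0.581 for other collagen chains, 0.587 for proteoglycans and matrix glycoproteins, 0.586 for mural markers, 0.617 for basement membrane partners, 0.621 for cleavage and crosslinking genes and 0.626 for fibroblast markers. It was 0.959 for folding and modifying enzymes, 0.755 for mesothelial, 0.862 for endothelial and 0.970 for macrophage core markers, and 1.01 for B cell markers.

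The genes whose levels over the 6 libraries were most like the mean of the 7 collagen, Sparc and Dcn profiles were Des (Pearson r = 0.998), Kdr (0.996), Fscn1 (0.993), Angptl2 (0.992) and Col4a5 (0.990), out of 9382 protein-coding candidates. These values describe the step between the 2 sets by code together with the order of libraries inside Exp-156b. There Tg-ACE replicate 2 was the lowest and Tg-ACE replicate 3 the highest for each of these genes. No p is given. The mean of the 3 mesothelial genes, which moved in opposite directions, is a poor summary of them, and its closest profiles (Srr, Mad1l1, Nudt5, Umps and Ccnb1, r from 0.961 to 0.978) are given only for completeness.

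Sequence shared with other genes was counted on annotated transcripts, not on the reads themselves. Of the 75-base words in the annotated transcripts, 0 were shared with another gene for Col1a1, Col1a2, Col4a1, Col18a1, Sparc, Dcn, Upk3b and Krt19. For Col3a1 0.672% were shared, with Gm47302, and for Msln 1.43%, with 18 other genes. What part of the few Msln counts could come from those genes was not tested.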

How the data were processed

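Gene-level expected counts from RSEM, not normalized, are what the authors deposited, in 1 table with all 6 samples. The submitters' processing notes name STAR 2.5.0, RSEM 1.2.25, mm10 and GRCh38 without roles. Whether reads were counted by strand is not stated there. Libraries were poly-A selected and stranded, read as single 75-base reads, per the labels' protocols. Expected counts were rounded, and 92 spike-in rows (1 count in all) left out. The table had 0 columns of other samples. No 2 libraries were identical.

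Groups came from the sample titles and experiment codes from the descriptions. The series' design text writes Tg-NKO where titles say Tg-ACE, and the titles were followed. edgeR 4.0.16 (R 4.3.3) was fitted to all genes with TMM factors, filterByExpr (12827 of 25509 genes kept) and the quasi-likelihood test, once on genotype, once on genotype and code, and once with their interaction, with Benjamini-Hochberg adjustment. CPM uses TMM-scaled totals. The SE is the log2 difference over the square root of F. DESeq2 1.42.0 and limma 3.58.1 were alternatives. Positions and exon lengths (the union of a gene's annotated exons) are from GENCODE M21, where 25251 identifiers matched. The fits were tested on simulated data whose spread was smaller than that of the fit on genotype alone. The simulation therefore does not show what that fit could detect here.

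Same-numbered libraries deviated together (r = 0.856, 0.483 and 0.637), so the number was also fitted as a block; with the code removed, numbers 2 and 3 gave -0.178 and -0.101. The 10 genes and the lists were chosen with earlier results of these data known. Named were the 10 genes, Ace, at most 3 genes per list by level, list genes that passed, and the 5 most alike. Other list genes (those near 0, those that did not pass, Pi16) were named after their values were seen.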

Additional observations from a re-analysis of the deposited data

How the results depend on the processing

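By genotype, 0 genes passed with RLE factors or a filter of 5 CPM in 3 libraries, as in the reported fit, against 9 with DESeq2, 1 with limma-voom, 1 without a filter, 2 with the experiment code as a term, 2 with the replicate block, 2 in Exp-156b only and 2 with the code and without the second Tg-ACE library (an alternative chosen after seeing the data), and 0 to 1 when a library was left out. None of the 10 genes was among these calls. By code the count of 5502 became 3409 to 5260 with a library left out, lowest without an Exp-156 library, and lay between 4520 and 5740 under the other alternatives. The interaction count was 0 except 13 with DESeq2.

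Genotype differences near 0 changed sign. With limma-voom they were -0.0039 for Col3a1, 0.049 for Col4a1 and 0.061 for Upk3b; with the code as a term 0.021 for Col4a1 and 0.12 for Upk3b; with the replicate block 0.051 for Col4a1 and 0.046 for Upk3b. With the code and without the second Tg-ACE library they were 0.13 for Col1a1, 0.25 for Col1a2, 0.27 for Col4a1, 0.29 for Sparc and 0.55 for Upk3b. With 1 library left out they ran from -0.83 to 0.18 for Col1a1, -0.64 to 0.18 for Col1a2, -0.23 to 0.32 for Col3a1, -0.68 to 0.72 for Col4a1, -0.21 to 0.45 for Col18a1, -0.65 to 0.22 for Sparc, -0.42 to 0.35 for Dcn, -0.78 to 0.36 for Upk3b and -0.11 to 0.55 for Krt19, with none called. Code differences ran from -0.43 to 0.058 for Col3a1 and -0.24 to 0.30 for Col18a1. The cause of these changes was not tested. All 80 mean levels recomputed under other scalings or without a library moved by less than 1 SD. Leaving out a single library cannot move a mean of this many libraries by 1 SD, so that part of the check could not fail. The filter of 5 CPM left Msln and Krt19 untested. Depth limits Msln most, at 17 to 57 counts per library.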
